A study of Rattus norvegicus with 9 samples.

Results

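The capillary endothelial identity genes followed in the rat heart were Btnl9, Ptprb, Cavin2, Tek, Tie1, Pecam1, Cdh5, Kdr and Flt1. These 9 genes were taken by symbol from the 5760 genes listed in at least 1 of 2 deposited tables, and 8 were listed in the Cal and model table, 7 in the model and sham table and 6 in both. A table lists a gene only where the authors' adjusted p was under 0.05 for that comparison, so the differences described here are also what placed the genes in the tables, and they are given as a description without a test. Cdh5 was not listed in the Cal and model table, and Tie1 and Flt1 were not listed in the model and sham table, so those values were not analysed here.

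Cardiac RNA was sequenced from 9 male Sprague Dawley rats, 3 per group, picked at random from larger groups. Heart failure was induced by tying off the left anterior descending artery in the model and Cal groups, while sham rats, called Control in the labels, had the operation without the tie. The Cal group was given calycosin (Cal), an isoflavone of Astragalus root, orally at 80 mg/kg per day for 28 days, and the sham and model groups received water. Whole cardiac tissue was used, in which surviving muscle, scar and vessels can be mixed, and the region taken is not given in the sources used here. The age of the animals is not given there either.

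Each sample column holds normalized counts, that is, the reads of a gene divided by a size factor of the library. The headings of the columns contradict each other. For Cal against model, the mean column that the authors headed Cal equalled the average of the 3 sample columns headed Model in 4288 of 4288 genes, and the mean column headed Model the average of those headed Cal. The model and sham table has sample columns headed Cal and Con, and there the mean column headed Model was the mean of the columns headed Cal in 2458 of 2458 genes. The libraries headed Cal were the same libraries in both tables, with identical recovered reads in 986 of 986 shared genes. Libraries are therefore called Cal, Model and Con libraries by the heading of their sample column. If the mean columns are headed correctly, the Cal libraries would be the model group and the Model libraries the calycosin group, so every direction between Cal and Model libraries below would swap its group names. The Con libraries carry 1 name throughout.

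Reads on the listed genes ranged from 2860826 to 3998471 per library for Cal against model, and between 3270460 and 4659882 for model against sham, and the full depth is unknown. Member genes had between 38 and 6862 reads in a library, the lowest being those of Btnl9 in the Model libraries. Within groups, pairs of replicates had a chi-square of 10.9 to 80.7 per degree of freedom over the listed genes. These were 12 pairs, with the pairs of Cal libraries counted once in each table. Counting noise alone gives about 1, so all were kept as separate replicates. Cal replicate 2 was the lowest Cal library for 6 of 8 members and Con replicate 2 the highest Con library for 7 of 7.

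Capillary endothelial cells line the smallest vessels of the heart, deliver oxygen and fatty acids to cardiomyocytes, and hold their shape through signals from growth factors in the tissue. VEGF acts through the receptor Kdr (VEGFR2), while Flt1 (VEGFR1) binds VEGF and placental growth factor with little signalling of its own. Angiopoietins act through Tek (Tie2), helped by its relative Tie1, and the phosphatase Ptprb (VE-PTP) removes phosphate from Tek and from the junction protein VE-cadherin, the product of Cdh5. Pecam1 is an adhesion molecule at endothelial contacts, Cavin2 (also called Sdpr) is a coat protein of caveolae, the small pits of the endothelial membrane, and Btnl9 is a butyrophilin-like membrane protein used as a marker of capillary endothelium. In heart tissue as a whole, fewer endothelial cells and less RNA per endothelial cell cannot be told apart.

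The promoters of Btnl9 and Cavin2 are shown because these genes had the lowest levels in the Model libraries relative to Con among the 6 genes listed in both tables. Each window is the 250 bases before the annotated start in RefSeq on the rat GRCr8 assembly, on the minus strand, at chr10:33990305-33990554 for Btnl9, the first of its annotated starts, and at chr9:57806025-57806274 for Cavin2. Capitals mark GGAAG or its reverse complement CTTCC, the core letters bound by ETS factors, a family to which the endothelial regulators Erg and Fli1 belong.
Btnl9: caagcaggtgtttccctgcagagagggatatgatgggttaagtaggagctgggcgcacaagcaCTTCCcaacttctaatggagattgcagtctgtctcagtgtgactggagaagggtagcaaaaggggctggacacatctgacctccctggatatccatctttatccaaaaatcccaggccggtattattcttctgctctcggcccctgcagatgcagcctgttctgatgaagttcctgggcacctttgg
Cavin2: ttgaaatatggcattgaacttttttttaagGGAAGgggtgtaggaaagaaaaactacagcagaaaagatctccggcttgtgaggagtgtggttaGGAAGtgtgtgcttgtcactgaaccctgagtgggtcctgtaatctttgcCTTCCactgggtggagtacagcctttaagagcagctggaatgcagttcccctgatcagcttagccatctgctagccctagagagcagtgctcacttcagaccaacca
The Btnl9 window held 1 match and the Cavin2 window 3. Among the other genes with a RefSeq entry, Tie1 held 3 matches, Flt1 3 and Kdr 1, although 66, 250 and 32 bases of the Tie1, Flt1 and Kdr windows lie inside the annotated gene. Of 27457 promoter windows of the same length, 63.3% held at least 1 match and 3019 held at least 3, so matches of this kind are common. The letters AACAAT (Sox factors) and TGTTTAC (forkhead factors), searched on both strands, were in none of these 5 windows, and 10.3% and 3.25% of all windows held them. Ptprb, Tek, Pecam1 and Cdh5 were not searched.

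The first comparison asks how Cal libraries differ from Model libraries, which by the mean columns' headings would be the model group against the calycosin group. All 8 listed members were higher in every Cal library than in any Model library, from 17.6-fold for Btnl9 to 1.53-fold for Tie1. Fold changes are differences on the log2(normalized count + 1) scale from limma, which understates changes of genes with few reads, and a gene is called where the Benjamini-Hochberg adjusted p over all listed genes is under 0.05 and the log2 fold change is beyond 1 in either direction. By this rule 6 of 8 members were called higher, beside 28.4% of the 4288 listed genes. With the adjusted p alone 8 of 8 were higher, beside 46.0% of listed genes, and groups that did not overlap, with Cal higher, were found for 8 of 8 beside 45.7%. The members had a median log2 fold change, Cal over Model, of 1.75, and all listed genes one of -0.52. Since these genes are in the table because they differed, nothing is read from these shares.

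Btnl9 (ENSMUSG00000040283, mouse chromosome 11 from 49165585 to 49187159) had the widest gap. Its normalized counts were 864, 1037 and 756 in the Cal libraries and 68.0, 47.6 and 36.4 in the Model libraries, which is 886 ± 142 against 50.7 ± 16.0 (SD, n = 3 each). The lowest Cal library was 11.1 times the highest Model library, and the log2 fold change of 4.13 (standard error 0.25) ranked 16 from the top of 4288 genes. Under the alternatives run it stayed between 3.91 and 4.43.

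The angiopoietin receptor and its phosphatase come next. Ptprb (ENSMUSG00000020154, mouse chromosome 10 from 116275523 to 116389535) had normalized counts of 3559, 2656 and 3122 in Cal and 276, 394 and 392 in Model libraries, a log2 fold change of 3.14 (standard error 0.19). Tek (ENSMUSG00000006386, mouse chromosome 4 from 94739289 to 94874976) had 1345, 1013 and 1400 against 243, 337 and 317, which gave a log2 fold change of 2.06 (standard error 0.19). For both genes the lowest Cal library was Cal replicate 2 and the lowest Model library was Model replicate 1, and the groups stood clear of each other, by 6.74 times for Ptprb and 3.01 times for Tek between the nearest libraries. The co-receptor Tie1 (ENSMUSG00000033191, mouse chromosome 4 from 118471191 to 118490061) had 2036, 1969 and 2259 in Cal and 1287, 1111 and 1777 in Model libraries. Its log2 fold change of 0.61 (standard error 0.19) was the smallest of the 8, and the nearest libraries, Cal replicate 2 and Model replicate 3, were only 1.11 times apart. This was the narrowest gap of the 8. The reads of the pair within 1 library, which need no scaling, showed the same difference: Tek had 0.661, 0.514 and 0.620 reads per Tie1 read in the Cal libraries and 0.189, 0.303 and 0.179 in the Model libraries.

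Both VEGF receptors were higher in Cal libraries by smaller amounts. Kdr (ENSMUSG00000062960, mouse chromosome 5 from 75932827 to 75978458) had normalized counts of 3383, 2054 and 2576 in Cal and 1060, 812 and 1040 in Model libraries, and its log2 fold change was 1.44 (standard error 0.21). Flt1 (ENSMUSG00000029648, mouse chromosome 5 from 147561604 to 147726011) had 3344, 3002 and 3384 against 1496, 1622 and 1796. Its log2 fold change of 0.99 (standard error 0.13) was just under the limit of 1, so Flt1 was not called although its groups were 1.67 times apart at their nearest. Flt1 passed the limit with quantile normalization (1.52), median-ratio scaling over the listed genes (1.29) and edgeR (1.19), and also without Model replicate 3 (1.06) or Cal replicate 2 (1.04). Reads of Kdr per Flt1 read were 1.01, 0.684 and 0.761 in Cal and 0.709, 0.501 and 0.579 in Model libraries, so these ratios overlapped.

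The junction and caveolar members differed from each other. Cavin2 (ENSMUSG00000045954, mouse chromosome 1 from 51289126 to 51302960) had normalized counts of 2158, 1461 and 1585 in Cal and 234, 222 and 177 in Model libraries, a log2 fold change of 3.02 (standard error 0.19). The 3 Model libraries lay close together, and the nearest Cal library was 6.24 times the highest of them. Pecam1 (ENSMUSG00000020717, mouse chromosome 11 from 106654217 to 106750628) had 3437, 3477 and 3735 in Cal libraries and 2113, 1051 and 1251 in Model libraries, a log2 fold change of 1.33 (standard error 0.25). Model replicate 1 stood above the other two Model libraries for Pecam1, and the log2 fold change ranged from 1.12 to 1.63 as each library was left out in turn.

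**Figure D1:**
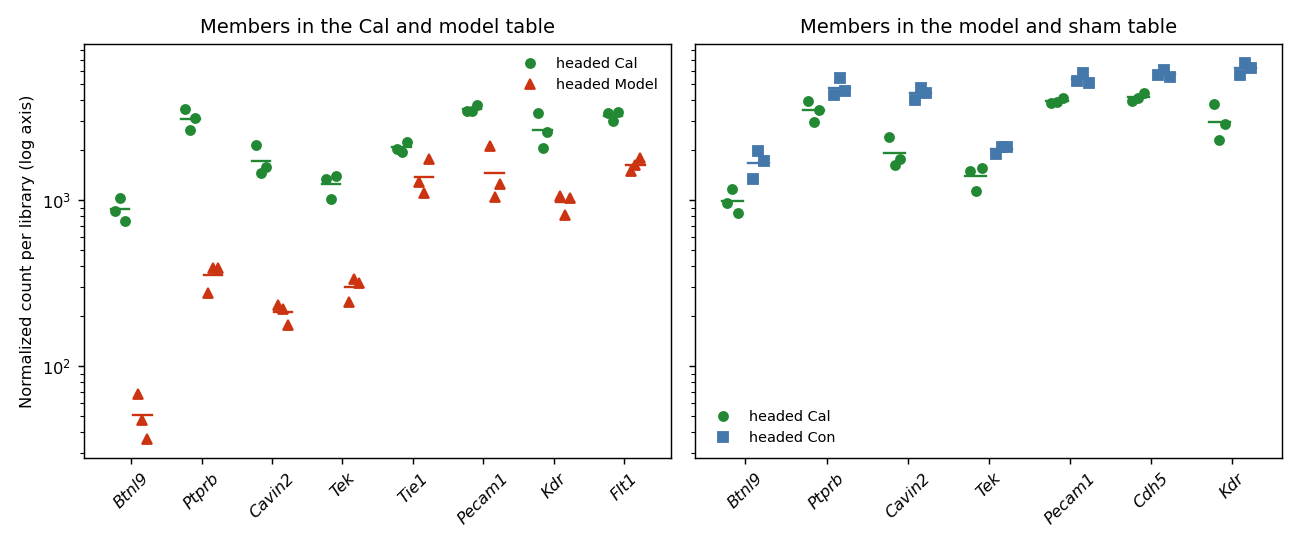
Normalized count per library on a log axis for the members listed in the Cal and model table (left) and in the model and sham table (right), with each symbol a library named by its sample heading and each bar the mean of 3. Btnl9, Ptprb and Cavin2 show the widest gaps on the left, and no gene's groups overlap in either panel.

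The second comparison sets the Cal libraries, which the mean columns call the model group, against the Con libraries of the sham rats. All 7 listed members were lower in every Cal library than in any Con library, by 2.30-fold for Cavin2, 2.13-fold for Kdr and 1.70-fold for Btnl9, with the other 4 between 1.36-fold and 1.47-fold. The call rule was met by 2 of 7 members, Cavin2 and Kdr, beside 10.9% of the 2458 listed genes. With the adjusted p alone 7 of 7 were lower, beside 39.2%, and groups without overlap, with Cal lower, were found for 7 of 7 beside 38.5%. The members had a median log2 fold change, Cal over Con, of -0.55, and all listed genes one of 0.37. This table shares its Cal libraries with the other one, and listing again fixed that the groups differ.

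Cavin2 had normalized counts of 2413, 1639 and 1767 in the Cal libraries and 4006, 4768 and 4443 in the Con libraries, and its log2 fold change was -1.20 (standard error 0.14). Kdr had 3783, 2303 and 2872 against 5714, 6740 and 6312, and its log2 fold change was -1.09 (standard error 0.16). Both genes had their highest Cal value in Cal replicate 1 and still stood 1.66 and 1.51 times below the lowest Con library. Without Cal replicate 2, the lowest for Kdr, its log2 fold change was -0.92 and Cavin2 was the 1 member called.

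Btnl9 had normalized counts of 967, 1163 and 843 in Cal and 1344, 1987 and 1737 in Con libraries, a log2 fold change of -0.76 (standard error 0.17). It passed the limit of 1 with quantile normalization (-1.19) and median-ratio scaling (-1.05), and just passed it with edgeR. Tek had 1504, 1136 and 1561 against 1901, 2111 and 2091, which gave a log2 fold change of -0.55 (standard error 0.13). The Tek libraries of both groups stood 1.22 times apart at their nearest, a narrower gap than that to the Model libraries.

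The junction genes Cdh5 and Pecam1 had near-equal differences with little spread. Cdh5 (ENSMUSG00000031871, mouse chromosome 8 from 104101625 to 104144511) had normalized counts of 3981, 4112 and 4431 in Cal and 5653, 6085 and 5505 in Con libraries, a log2 fold change of -0.46 (standard error 0.075). Pecam1 had 3844, 3898 and 4165 against 5240, 5853 and 5093, which gave a log2 fold change of -0.44 (standard error 0.078). These standard errors were the smallest of the 7 members. Ptprb had 3980, 2978 and 3481 against 4286, 5493 and 4551, which gave a log2 fold change of -0.46 (standard error 0.13). Its nearest libraries were only 1.08 times apart, the narrowest gap among the members in this table.

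**Figure D2:**
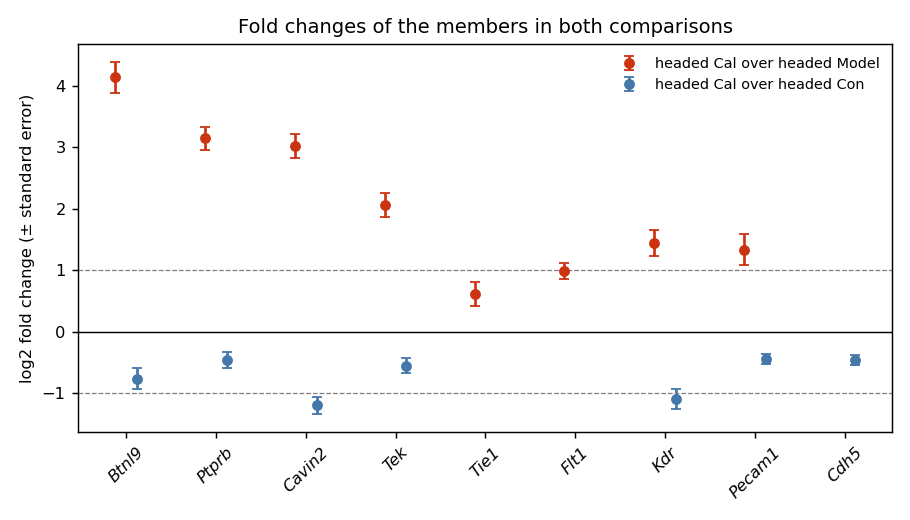
Log2 fold change with its standard error for each member, Cal over Model libraries in red and Cal over Con libraries in blue, with dashed lines at the call limits. Btnl9, Ptprb and Cavin2 lie at or above 3.02 in red, and all blue values lie between -1.20 and -0.44.

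The 6 members listed in both tables could be placed on 1 scale. Values of the Con libraries were multiplied by the mean ratio of the shared Cal libraries between the tables, 0.894 (0.892 to 0.897 over the 3 libraries), and since the tables had been normalized separately no test was run across them. On this scale all 6 had every Con library above every Cal library and every Cal library above every Model library, an order held by 226 of the 986 genes in both tables (22.9%). Under the mean columns' headings this order would read sham, model, calycosin. The median log2 difference of Model minus Con was -3.11 for the members and 0.16 for all 986 genes.

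Btnl9 kept least of its Con level. Its means were 1511 ± 290 in Con, 886 ± 142 in Cal and 50.7 ± 16.0 in Model libraries (SD, n = 3 each), so the Model mean was 3.35% of the Con mean and the Cal mean 58.6%. Cavin2 followed at 3940 ± 342, 1735 ± 371 and 211 ± 29.99, with Model at 5.36% of Con and Cal at 44.0%. For Ptprb the means were 4272 ± 567, 3112 ± 451 and 354 ± 67.3, with Model at 8.29% of Con and Cal at 72.9%. These 3 genes, a membrane protein, a caveolar protein and a phosphatase, had the lowest shares of their Con level in the Model libraries.

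The receptors and the junction gene kept more. Tek had 1819 ± 104 in Con, 1252 ± 209 in Cal and 299 ± 49.4 in Model libraries, and Model was 16.4% of Con. Kdr had 5594 ± 461, 2671 ± 669 and 971 ± 138, and Model was 17.4% of Con. Pecam1 had 4825 ± 360, 3550 ± 162 and 1472 ± 565, and Model was 30.5% of Con, the highest share of the 6. In the Cal libraries the order was another one: Pecam1 at 73.6%, Ptprb at 72.9% and Tek at 68.8% of Con lay above Btnl9, and Kdr at 47.7% and Cavin2 at 44.0% lay below it.

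**Figure D3:**
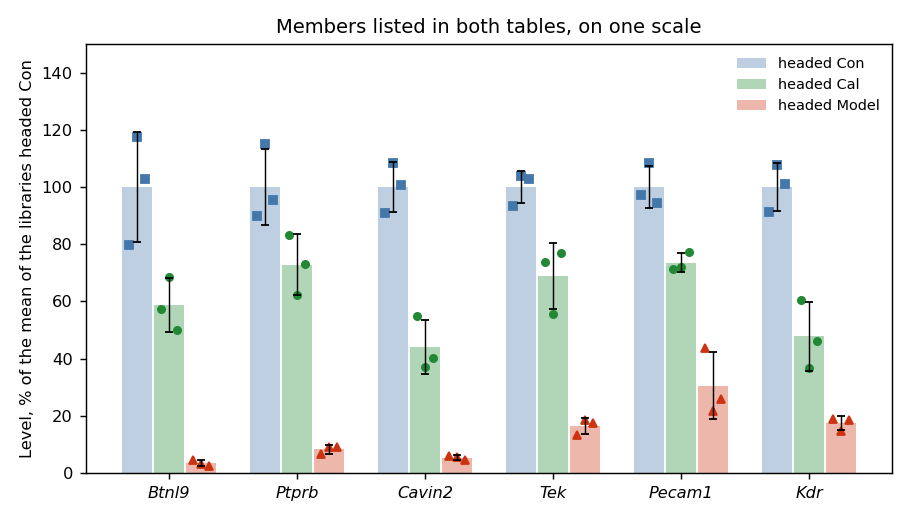
Level of the 6 members listed in both tables as a percent of the mean of the Con libraries, with bars for means, points for libraries and error bars for the SD of 3. The Model bars run from 3.35% for Btnl9 to 30.5% for Pecam1, and the Cal bars from 44.0% for Cavin2 to 73.6% for Pecam1.

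Ratios of reads within a library show how the members changed relative to each other, free of any scaling between libraries. Reads of Ptprb per Tek read were 2.65, 2.62 and 2.23 in Cal libraries, 2.26, 2.60 and 2.18 in Con libraries and 1.14, 1.17 and 1.24 in Model libraries. The Cal and Con values overlapped and the Model values lay below both. Btnl9 against Pecam1 also overlapped between Cal and Con libraries and lay below both in Model libraries. It had 0.251 ± 0.048 reads per Pecam1 read in Cal, 0.312 ± 0.048 in Con and 0.036 ± 0.0086 in Model libraries (SD, n = 3 each). Ptprb per Pecam1 read was 0.878 ± 0.141 in Cal, 0.883 ± 0.061 in Con and 0.273 ± 0.127 in Model libraries.

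Cavin2 and Kdr differed from that pattern in the Cal libraries. Cavin2 per Pecam1 read was 0.491 ± 0.119 in Cal, 0.817 ± 0.054 in Con and 0.155 ± 0.051 in Model libraries (SD, n = 3 each), with no overlap between the 3 groups. Kdr per Pecam1 read was 1.16 ± 0.075 in Con libraries, while Cal (0.755 ± 0.205) and Model (0.702 ± 0.176) overlapped. Tek per Pecam1 read overlapped between Cal (0.391, 0.291 and 0.375) and Model (0.115, 0.320 and 0.254) libraries and between Cal and Con libraries. Cdh5 per Pecam1 read was 1.05 ± 0.014 in Cal and 1.07 ± 0.023 in Con libraries, so this pair of junction genes kept its ratio within the spread. Tie1 reads per Pecam1 read were 0.592, 0.566 and 0.605 in Cal and 0.609, 1.06 and 1.42 in Model libraries. Every Model library lay above every Cal library, replicate 1 only just. Flt1 per Pecam1 read was 0.973, 0.863 and 0.906 in Cal and 0.708, 1.54 and 1.44 in Model libraries, which overlapped.

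**Figure D4:**
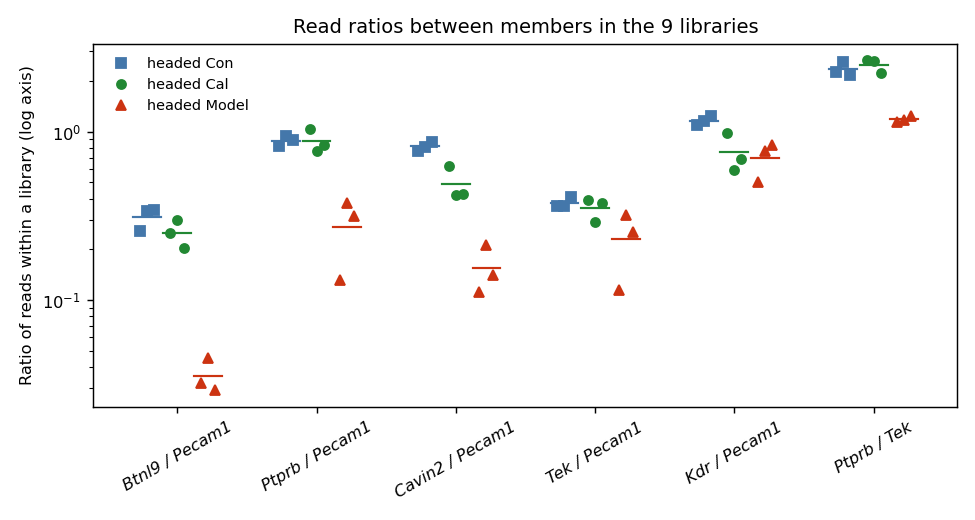
Ratio of recovered reads of 2 members within each library on a log axis, with each symbol a library and each bar the mean of 3. Btnl9 and Cavin2 per Pecam1 and Ptprb per Tek are lower in every Model library than in any other library, while Kdr per Pecam1 overlaps between Cal and Model libraries.

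Levels between genes can be compared only per length, here as the normalized count per kilobase of the deposited gene length. The lengths are given with mouse gene identifiers although the animals were rats, and what this does to the order of genes was not tested. In the Con libraries Cavin2 (1442 per kilobase) and Cdh5 (1368) came first and overlapped, followed by Pecam1 (866) and Kdr (693), which stood apart from their neighbours. Tek (432) overlapped Ptprb (358) and Ptprb overlapped Btnl9 (279) at the low end. In the Cal libraries of the Cal and model table Pecam1 (570) and Cavin2 (568) led and overlapped, then came Tie1 (425), then Kdr (296), Tek (266), Flt1 (240) and Ptprb (233), each overlapping the next, and Btnl9 (146) was last and apart. In the Model libraries Tie1 (283) and Pecam1 (236) led and overlapped, followed by Flt1 (121) and Kdr (108), which also overlapped. Cavin2 (69.1) was then level with Tek (63.4), while Ptprb (26.6) and Btnl9 (8.37) stood apart below them. Among the 6 members listed in both tables, Cavin2 was the first in Con libraries and the third in Model libraries.

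The members' profiles over the 9 libraries were alike. Pearson's r between pairs of the 6 members in both tables was 0.907 to 0.994 (median 0.960, 15 pairs), a description in which the libraries fall into 3 groups that differ by the choice of genes. Against the mean profile of the 6, to which each contributes, r ran from 0.962 for Pecam1 to 0.997 for Cavin2. Among the other genes most alike were Kif26a (0.997), Abca9 (0.995), Aqp7, Rflnb, Adamts10 and Ski (0.994 each), and Dchs1, Cxcl12 and Palm (0.993 each). Of 986 genes 171 (17.3%) had r above 0.95, so such likeness was frequent. Aqp7, an aquaglyceroporin of capillary endothelium, had 541 ± 99.3 normalized counts in Con, 265 ± 81.0 in Cal and 14.4 ± 7.19 in Model libraries. Cxcl12, a chemokine, had 3714 ± 99.96, 2273 ± 197 and 354 ± 75.2, and the transcriptional co-repressor Ski changed far less, with 1676 ± 63.0, 1391 ± 51.7 and 873 ± 33.0 (SD, n = 3 each).

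The ligands and partners of the receptors did not move as 1 block. The counts for these and the later gene lists stand beside 28.4% of listed genes called higher and 31.6% called lower in Cal over Model libraries, and beside 18.0% higher and 10.9% lower in Cal over Con libraries, and the genes counted were again chosen by listing. Counts with quantile normalization stand beside 1393 higher and 1175 lower of 4288 listed genes, Cal over Model. For Cal over Con they stand beside 348 higher and 387 lower of 2458. There, median-ratio scaling called 447 of all listed genes lower and edgeR 406. Of 23 genes of the VEGF and angiopoietin systems 13 were listed in the Cal and model table, of which 6 rose in Cal over Model libraries, 4 fell and 3 were not called, with a median log2 fold change of 0.91 beside -0.52 for all listed genes. Vegfa, the main ligand of Kdr, had 2819 ± 365 normalized counts in Cal and 1171 ± 159 in Model libraries, a log2 fold change of 1.27 (standard error 0.16). The VEGF co-receptor Nrp1 rose by 1.03 and the semaphorin receptor Plxnd1 by 1.72 on the log2 scale. Pgf, the placental growth factor bound by Flt1, went the other way, from 2179 ± 815 in Model to 270 ± 63.8 in Cal libraries, a log2 fold change of -2.97 (standard error 0.30). Angpt2, the angiopoietin that can block Tek, had 418 ± 209 in Model and 68.8 ± 10.7 in Cal libraries, a log2 fold change of -2.43 (standard error 0.43). Hif1a, the oxygen-sensing factor, was also lower in Cal libraries, with a log2 fold change of -2.30, as was the guidance ligand Sema3a, with -1.56. The angiopoietin gene Angpt4 had at most 1 read in a Model library and 8.86 normalized counts on average in Cal libraries, at least 2.72-fold higher against a floor of 3 reads per library, and Esm1, a secreted proteoglycan of endothelial tip cells, had 22.03 ± 9.01 in Cal against 3.72 ± 3.22 in Model libraries.

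Against the Con libraries 7 genes of these systems were listed, of which 2 rose in Cal libraries, 2 fell and 3 were not called, with a median of -0.37 beside 0.37. Pgf had 302 ± 71.1 normalized counts in Cal and 110 ± 22.6 in Con libraries, a log2 fold change of 1.44 (standard error 0.23), and Sema3f had one of 1.13. Aplnr, the apelin receptor of growing endothelium, had 187 ± 29.6 in Cal and 1376 ± 105 in Con libraries, a log2 fold change of -2.88 (standard error 0.13). Angpt2 fell by 1.17 on the log2 scale, while Nrp1 (-0.37) and Nrp2 (-0.32) were not called. On the common scale Pgf had 98.6 ± 20.2 in Con, 270 ± 63.8 in Cal and 2179 ± 815 in Model libraries, the reverse of the members' order. Angpt2, in contrast, was lowest in Cal libraries, with 161 ± 57.0 in Con, 68.8 ± 10.7 in Cal and 418 ± 209 in Model libraries (SD, n = 3 each).

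Genes of heart capillaries, which handle fatty acids and water, moved mostly with the members. Of 21 such genes 14 were listed in the Cal and model table, of which 12 rose in Cal over Model libraries, 0 fell and 2 were not called, with a median log2 fold change of 2.33 beside -0.52 for all listed genes. Rbp7, a retinol-binding protein of capillaries, had 153 ± 49.9 normalized counts in Cal and 3.40 ± 2.96 in Model libraries, a log2 fold change of 5.48 (standard error 0.71). Aqp7 had a log2 fold change of 4.16, Slc9a3r2, a membrane scaffold protein, one of 3.25, and Gpihbp1, the capillary anchor of lipoprotein lipase, one of 2.85. Car4, a carbonic anhydrase of capillaries, had -0.88 and was not called. Against Con libraries 13 were listed, of which 4 fell in Cal libraries, 0 rose and 9 were not called (median -0.69 beside 0.37), with Meox2 at -2.06, Tcim at -1.37, Tcf15 at -1.26 and Aqp7 at -1.06. Under quantile normalization 9 of these 13 fell.

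Other endothelial genes were split. Of 38, 27 were listed in the Cal and model table, with 12 higher and 5 lower in Cal libraries and 10 not called (median 0.94). Ldb2, an adaptor of transcription factors, had a log2 fold change of 3.96, Myct1 of 3.08, Adgrl4, an adhesion receptor of vessels, of 2.74 and Egfl7, a secreted endothelial factor, of 2.17. Lower in Cal libraries were Procr, the protein C receptor, at -1.60, the guidance receptor Robo4 at -1.36, Ecscr at -1.22, the adhesion receptor Adgrf5 at -1.09 and Cyyr1 at -1.08. The 5 lower genes are endothelial as well, so endothelial genes did not all share the members' direction. With quantile normalization 18 were higher and 2 lower. Against Con libraries 22 were listed, with 1 higher (Rasip1, a regulator of vessel lumens, 1.78), 5 lower and 16 not called (median -0.58), and Myct1 (-2.30), Clec14a (-1.84), Arhgef15 (-1.27) and Egfl7 (-1.15) were the largest of the 5. Quantile normalization gave 11 lower there.

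Transcription factors of endothelial cells also went both ways. Of 27, 14 were listed in the Cal and model table, with 7 higher and 5 lower in Cal libraries and 2 not called (median 1.08). Sox18 had a log2 fold change of 2.03, Nfatc1 of 1.91, Bcl6b of 1.74 and the ETS factor Elk3 of 1.51. The ETS factors Erg (1.16, standard error 0.17) and Fli1 (1.44, standard error 0.20), named here for the letters printed above rather than by the rule for named genes, also rose. Etv6 (-2.13) and Ets2 (-1.24), of the same family, fell, as did Foxf1 (-1.62) and Hhex (-1.52). Against Con libraries 18 were listed, with 2 higher, 8 lower and 8 not called (median -0.61), and Lyl1 (-3.47), Hhex (-2.82), Sox17 (-2.06) and Klf4 (-1.997) fell most, while Bcl6b (1.86) and Foxf1 (1.67) rose. On the common scale Erg had 682 ± 77.8 in Con, 452 ± 56.8 in Cal and 202 ± 26.8 in Model libraries (SD, n = 3 each), the order of the members.

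Caveolar partners of Cavin2 were listed for 8 of 10 genes in the Cal and model table, with 5 higher in Cal libraries and 3 not called (median 1.06). Cav1, the main caveolin, had 3439 ± 66.2 normalized counts in Cal and 437 ± 186 in Model libraries (log2 fold change 3.06, standard error 0.28), and Cav2 had 819 ± 92.2 against 83.4 ± 36.1 (3.37, standard error 0.31). Ehd2 (1.61) and Pacsin2 (1.07), which shape the caveolar neck, rose less, and Cavin1, the coat protein of all caveolae, had 0.83 and was not called. Against Con libraries 6 were listed and none was called, with Cav1 at -0.82, Cav2 at -0.74 and Cavin1 at -0.36, while quantile normalization called 3 lower, median-ratio scaling 2 and edgeR 1. On the common scale Cav1 in Model libraries was 7.13% and Cav2 6.05% of Con, near the 5.36% of Cavin2. Of 25 junction genes 13 were listed, with 3 higher, 2 lower and 8 not called (median 0.66), and quantile normalization called 9 higher. Cldn5, the endothelial claudin, had 2.14, the connexin Gja5 2.12 and Cgnl1 1.29, while Cgn (-1.84) and the connexin Gja4 (-1.66) fell. Against Con libraries 9 were listed with 1 called, Cldn5, which was higher in Cal libraries at 1.301, unlike Cdh5 and Pecam1.

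**Figure D5:**
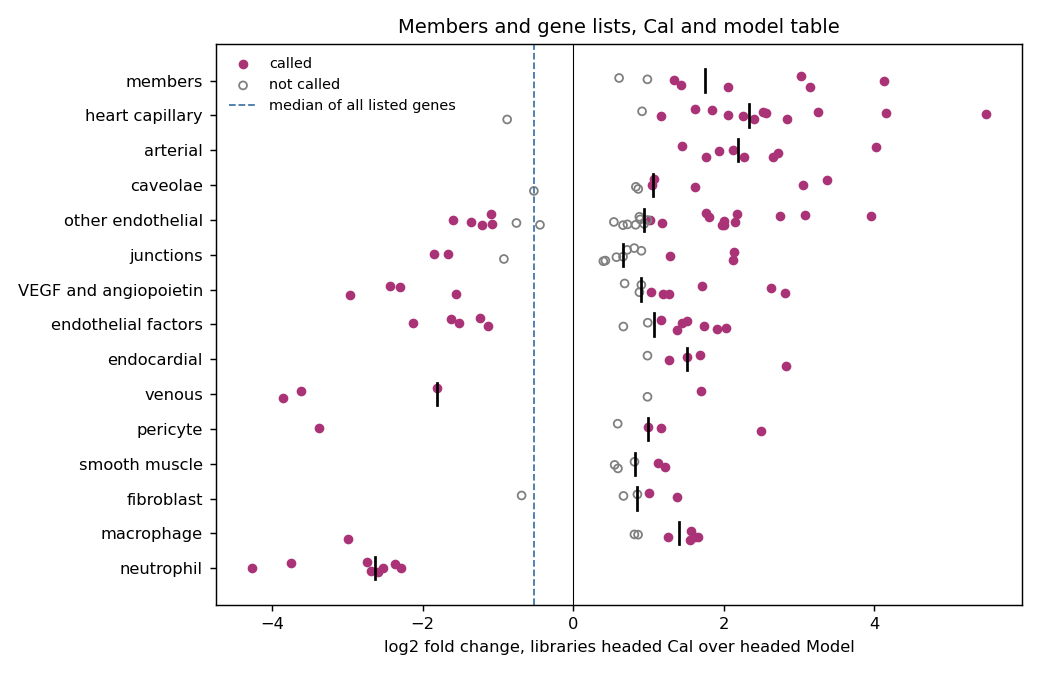
Log2 fold change of Cal over Model libraries for each listed gene of the members and of the lists, with filled points called, open points not called, black bars list medians and the dashed line the median of all listed genes at -0.52. Heart capillary, arterial, caveolar and endocardial genes lie mostly to the right with the members, as do pericyte, smooth muscle, fibroblast and macrophage genes. Neutrophil genes lie to the left. The other endothelial, junction, VEGF and angiopoietin, endothelial factor and venous lists hold points on both sides.

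Vessel types differed. All 8 arterial markers listed of 12 were higher in Cal over Model libraries (median 2.20), with Stmn2 at 4.02, Bmx at 2.72, Hey1 at 2.65 and Efnb2 at 2.27. Of 8 venous markers 5 were listed, with Ephb4 higher (1.70), 3 lower and 1 not called (median -1.81), namely Lrg1 (-3.86), Ackr1 (-3.62) and the adhesion molecule Selp (-1.81). Lrg1, Selp and Vcam1 also respond to inflammation. Endocardial markers were higher in 4 of 5 listed of 7 (median 1.51), and lymphatic markers had 1 higher (Prox1), 1 lower (Pdpn) and 1 not called of 9. Against Con libraries 2 of 5 listed arterial markers were lower, Hey1 (-3.07) and Mecom (-1.10), with 3 not called (median -0.75). Of 4 venous markers 2 were higher, Selp (5.88) and Vcam1 (4.02), 1 was lower, Nr2f2 (-1.69), and 1 was not called. Endocardial markers had 3 listed and 0 called, and no lymphatic marker was listed.

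Markers of other cells moved in the same comparisons. In Cal over Model libraries pericyte markers had 3 higher, 1 lower and 1 not called of 10, with summed normalized counts of 7946 to 8871 against 14252 to 20823, set by Steap4 (log2 fold change -3.37). Smooth muscle markers had 2 higher and 3 not called of 8, with sums of 5313 to 5995 against 2920 to 3689. Fibroblast markers had 2 higher (Col1a1 and Col1a2) and 3 not called of 12, with overlapping sums of 19172 to 23291 and 17132 to 24097. Macrophage markers had 5 higher, 1 lower (Fcgr1) and 2 not called of 12, with sums of 8731 to 9878 against 3732 to 5342. All 8 neutrophil markers listed of 10 were lower in Cal libraries, with sums of 82.1 to 249 against 1023 to 1094 and Mpo at 0 in all Cal libraries. Only 2 of 15 lymphocyte markers were listed, Gzma and Gzmb. Both were lower, with sums of 4.61 to 6.57 against 53.7 to 85.3. Platelet markers had 1 higher and 2 lower of 9, with sums of 413 to 537 against 589 to 719. Gzma, Camp and Mpo had at most 3, 2 and 0 reads in a Cal library. Against a floor of 3 reads per library they were at least 4.98-fold, 4.30-fold and 1.61-fold lower. Cardiomyocyte markers had 1 lower (Nppa) and 1 not called of 18, with sums of 2024 to 2811 against 3836 to 6950. The 2 listed were natriuretic peptide genes, so these sums hold no contractile gene. With quantile normalization, median-ratio scaling or edgeR 0 of the 2 were called. Apart from Mpo no listed marker was at 0 in all 3 libraries of a group. The part of these cell types in the members' values was not tested.

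Against Con libraries fewer such markers were listed. Cardiomyocyte markers had 6 listed and 0 called, with sums of 641620 to 663795 in Cal and 493383 to 601527 in Con libraries, and Myh6, the main cardiac myosin of the rat, had 335145 ± 1036 and 275029 ± 33746 normalized counts (SD, n = 3 each), so this heart muscle gene was abundant in the Cal and Con libraries, while the Model libraries have no value for it here. Pericyte markers had 1 lower (Kcnj8) and 4 not called, with sums of 12355 to 13580 against 15863 to 20081, and fibroblast markers 1 lower (Pdgfra) and 3 not called, with sums of 9550 to 12371 against 14389 to 16008. Smooth muscle markers had 2 listed and 0 called, with sums of 3580 to 3835 against 4409 to 4844. Macrophage markers had 1 higher (Cd14, 3.44) and 2 not called, both with a negative log2 fold change, and a median of -0.49. Their sums of 2163 to 2895 against 1285 to 1478 were set by Cd14, with 1612 ± 403 in Cal and 146 ± 27.2 in Con libraries. Both neutrophil markers listed, S100a8 and S100a9, were higher, with sums of 48.5 to 183 against 13.05 to 28.5. The platelet gene Pf4 was not called, with 385 to 480 against 288 to 346, and no lymphocyte marker was listed. For the lists with 0 called against Con libraries, the limma adjusted p alone was met by every listed gene. These were 2 caveolar genes higher and 4 lower, 3 endocardial lower and 2 smooth muscle lower. The others were 5 cardiomyocyte genes higher and 1 lower, and 1 platelet gene higher. It was also met by 2454 of all 2458 listed genes, as listing largely fixed, so nothing is read from these counts. With edgeR 1 caveolar and 1 endocardial gene were called lower, beside 406 of the 2458 listed genes. Here too the part of other cell types in the members' values was not tested.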

How the data were processed

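Poly-A cardiac RNA was sequenced as 150-base paired-end reads. According to the Methods the authors aligned reads to rat reference sequences and ran DESeq2, while the submitters' processing notes name Bowtie 0.12.2 and mm8 and mm9 with no role. Identifiers and coordinates are those of mouse genes as given in the tables, whose build is not given in the sources used here. Sample columns hold a deposited signal, namely read counts over a size factor per library (0.820 to 1.17 in the Cal and model table, 0.950 to 1.07 in the other), and 100% of values were whole reads within 0.02. Deposited fold changes, p-values and adjusted p-values of the authors' own comparisons were not used, nor were their values compared. Gene lengths are given in bases as deposited.

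Genes were tested with limma 3.58.1 in R 4.3.3 (trended prior variance) on log2(normalized count + 1) within each table, and Benjamini-Hochberg adjusted p-values cover all genes of that table. Groups followed the sample headings. The members and gene lists were chosen with earlier results of these data known. Named genes were the members, per list up to 4 called genes with the largest change in each direction, ligands, receptors and paralogs of members, and the 10 genes most alike, of which 1 is not reported here. Genes named outside this rule (Camp, Car4, Cyyr1, Erg, Fli1, Mpo, Myh6 and the uncalled genes whose sign changed) were chosen after their values were seen. The lists counted were VEGF and angiopoietin, heart capillary, other endothelial, endothelial factor, caveolar, junction, arterial, venous, lymphatic, endocardial, pericyte, smooth muscle, fibroblast, cardiomyocyte, macrophage, neutrophil, lymphocyte and platelet genes, and Vwf and Gja5 stand in more than 1 list. Other settings tried were a pseudocount of 0.1 or 10, quantile or median-ratio scaling, a minimum mean of 10, no fold change limit, edgeR 4.0.16 or DESeq2 1.42.0 on recovered reads, the replicate block, and each library left out. On simulated data of 4288 genes, 200 were given a log2 fold change of 2 in size, against the call limit of 1. There limma found 99% of the 200, with 3 false calls. The simulation gave every gene and library the same fixed spread beyond counting noise. That spread was not fitted to these libraries, so the result holds for that setting only. In the Cal and model table itself 4272 of 4288 listed genes met the adjusted p alone. The share of false calls among the deposited genes was not tested.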

Additional observations from a re-analysis of the deposited data

How the results depend on the processing

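No member changed direction under any alternative run. Of 195 refitted member fold changes 185 stayed on their side of the call rule, 9 passed it and 1 (Kdr against Con without Cal replicate 2) no longer did. Without the fold change limit 4272 genes were called between Cal and Model libraries and 2454 between Cal and Con libraries (2575 and 712 with it), and 7 members against Con (2 with it). Leaving out each library gave 2344 to 2704 and 679 to 775 genes, and 6 to 7 and 1 to 2 members. With the replicate block 2574 and 713 genes and 6 and 2 members were called. Same-numbered libraries were not paired: their deviations correlated between -0.119 and 0.110 and between -0.140 and -0.023, and the numbers belong to different animals.

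The median log2 fold change of all listed genes shifted by 0.42 (Cal over Model) and -0.42 (Cal over Con) with quantile normalization, by 0.30 and -0.28 with median-ratio scaling and by 0.20 and -0.24 with edgeR. The members' median relative to that of all genes was 2.28 and -0.92, and 2.26 and -0.95 with quantile normalization. Members called were 8, 7 and 7 against Model and 3, 3 and 3 against Con with these alternatives, and 6 and 2 with DESeq2. Beside them, 1393, 1646 and 1488 of all 4288 listed genes were called higher against Model, and 1207 with DESeq2 (1219 in the main fit). Against Con, 387, 447 and 406 of all 2458 were called lower, and 272 with DESeq2 (269 in the main fit). The share of calls that were higher in Cal libraries was 47.3% against Model, and 54.2% with quantile normalization, 61.1% with median-ratio scaling and 56.0% with edgeR. Against Con it was 62.2%, and 47.3% with quantile normalization, 43.3% with median-ratio scaling and 46.9% with edgeR. No called list gene changed sign under these scalings, and among uncalled ones Adgrl2, Ehd4, Dcn, Esam, Shank3, Aqp1, Rapgef1, Pacsin3, Ryr2, Actn2, Atp2a2 and Ckm did in at least 1 of them. Only listed genes could be tested, so Cdh5 against Model and Tie1 and Flt1 against Con stay without a value. The 3 libraries per group limit the precision of every value.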
